A study of Mus musculus with 78 samples.

Results

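B2 and B3 are families of short interspersed elements (SINEs), the non-coding repeats that were copied into the mouse genome from a tRNA-derived ancestor. RNA polymerase III can transcribe a B2 element from a promoter inside it, and a new copy is inserted by the protein machinery of LINE-1 elements. Many copies also lie inside longer RNA polymerase II transcripts, in introns and untranslated regions. B3 and B3A are the older relatives of the B2 elements. Here every repeat copy whose family name began with B2_ or B3 was taken from the repeat tables of the 4-cell and 8-cell blastomeres, which gave 80952 copies of the 461206 repeat copies listed at either stage. Of these, 59399 were listed at the 4-cell stage and 55782 at the 8-cell stage, in the subfamilies B2_Mm1a, B2_Mm1t, B2_Mm2, B3 and B3A.

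The blastomeres came from embryos of a cross between Brainbow-2.1 mice, with a CAG-driven fluorescent cassette at ROSA26, and CAG-cre/Esr1* mice, whose ubiquitously driven Cre enters the nucleus in the presence of tamoxifen. Embryos of both stages carried both transgenes, were exposed to 4-hydroxytamoxifen in vitro at the 2-cell stage, and then grew in KSOM medium to the 4-cell or the 8-cell stage. Each blastomere was picked and its polyadenylated RNA was converted to a Smart-seq2 full-length cDNA library, so that no group without the transgenes or the treatment was compared. There were 24 blastomeres at the 4-cell stage and 26 at the 8-cell stage, of which 5 had no name. The sample labels name more, 36 4-cell blastomeres of 9 embryos and 31 8-cell blastomeres of 4 embryos. A lineage was given for 24 of these 4-cell blastomeres, from 6 embryos, and for 26 of the 8-cell blastomeres, from 4. Column names do not show whether these are the blastomeres used here.

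The columns name no embryo and no lineage, and sister blastomeres of an embryo are not independent, so each stage was treated as 1 sample here. Blastomeres were not assigned to embryos by column order or by their values. No test between the stages was run and values are given as the lowest, the median and the highest blastomere. Values were FPKM, fragments per kilobase of the copy scaled to the fragment total of the blastomere. Low values fell on steps of whole fragments, from which the number of fragments behind each value and the fragment total of each blastomere could be recovered. That total was 6.88 to 16.9 M (M, 1e6 fragments) at the 4-cell stage, with a median of 13.4 M. The median of all 26 8-cell blastomeres was 17.3 M, and 25 of the 26 had 12.6 to 21.8 M. The remaining blastomere, S57, had 2.34 M and gave the lowest 8-cell number of every subfamily. This is below the minimum of uniquely mapped read pairs that the study set for a blastomere, although the totals may have been counted in different ways; S57 was a column of the tables and was kept. The markers fixed for blastomeres were read from the gene tables: 8 of 10 had a median above FPKM 1 at the 4-cell stage and 6 of 10 at the 8-cell stage, led by Dppa3 and Obox6. The summed FPKM of 8 cumulus and granulosa markers was 0 to 6.09 and 0 to 1.66, of which Inha, Inhba, Foxl2 and Fshr were listed at neither stage. Of the blood markers Hbb-bt and Hba-a1 neither was listed, and of 3 fibroblast markers only Col1a1 was, at no more than 0.0115 in the 8-cell blastomeres.

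B2 copies were seen in larger numbers at the 4-cell stage and B3 copies at the 8-cell stage. A copy was called seen in a blastomere when its value was above 0. A 4-cell blastomere contained 9165.5 seen B2 copies at the median, with a range from 4199 to 14705, and an 8-cell blastomere contained 4683, with a range from 1740 to 9061. No 8-cell blastomere reached the 4-cell median, and 12 of 24 4-cell blastomeres lay above the highest 8-cell blastomere. For B3 and B3A together the order turned, with a median of 1135 and a range from 374 to 2288 at the 4-cell stage against 1607 and 258 to 3207 at the 8-cell stage. Without S57 the lowest 8-cell blastomere had 3001 B2 copies and 530 B3 and B3A copies. The B3 ranges overlapped almost wholly, and 18 of 26 8-cell blastomeres were above the 4-cell median. The 2 families together gave 10348 copies in the median 4-cell blastomere and 6654.5 in the median 8-cell blastomere. These medians were 6392.5 and 3783.5 when a value above 1 was needed.

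The difference between the stages was graded by subfamily. B2_Mm1a had 2075 to 6813 seen copies in the 4-cell blastomeres, with a median of 4244, and 860 to 4758 in the 8-cell blastomeres, with a median of 1911.5. All 24 of the 4-cell blastomeres were above that 8-cell median. B2_Mm1t was at a median of 2870 against 1262.5, and 13 of 24 4-cell blastomeres were above every 8-cell blastomere. B2_Mm2 had a median of 2350.5 against 1335. The ratio of the 4-cell to the 8-cell median was thus 2.22 for B2_Mm1a, 2.27 for B2_Mm1t and 1.76 for B2_Mm2, and it was 0.717 for B3, with 784 against 1094 copies, and 0.665 for B3A, with 351 against 527.5 copies. The order of the stages in each subfamily was the same when a copy needed 2 fragments and when copies were counted at equal depth. At equal depth, which was 6.88 M fragments and left out S57, the expected median of B2 copies was 7105 at the 4-cell stage and 3434 at the 8-cell stage. For B3 and B3A together it was 1060 and 1431. Their ratio of medians was 0.706 for seen copies and 0.886 for seen copies over the fragment total, where the stages were closer.

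**Figure D1:**
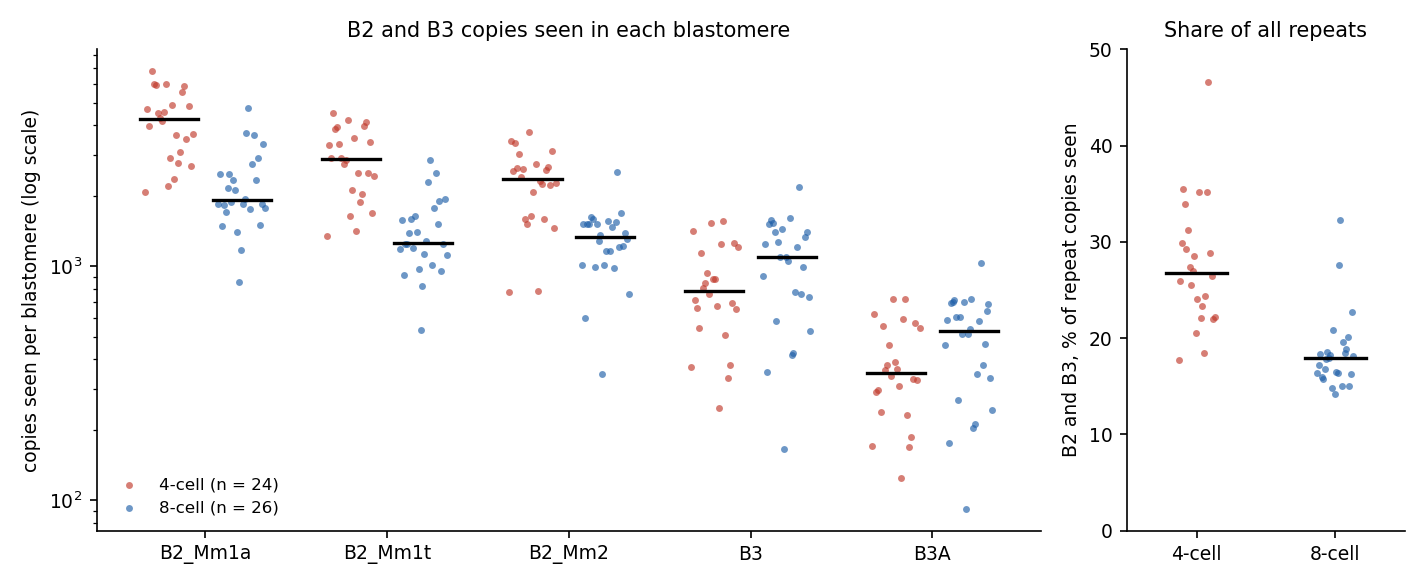
Left, the number of copies of each subfamily above 0 in each blastomere on a log scale, with 24 4-cell blastomeres in red, 26 8-cell blastomeres in blue and the median as a black line. Right, B2 and B3 copies as a percent of all repeat copies seen in the same blastomere: the medians are 26.7% and 17.9%, and the highest 4-cell point, at 46.6%, is S24.

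The total over all repeat families differed less between the stages. The median number of all repeat copies seen was 36838 at the 4-cell stage and 36262 at the 8-cell stage. B2 and B3 copies were a median of 26.7% of them at the 4-cell stage, with a range from 17.8% to 46.6%, and 17.9% at the 8-cell stage, with a range from 14.2% to 32.3%. Of the 24 4-cell blastomeres, 23 exceeded the 8-cell median. The blastomere with the highest share was S24 at the 4-cell stage and S55 at the 8-cell stage. B1 SINEs, the family that derives from 7SL RNA, had medians of 5515 and 5818.5 seen copies, and the B4 SINEs had 425 and 675. These comparisons with B1 and B4 stand side by side without a test. The B1_Mm subfamily had a median of 1208.5 seen copies against 955, a smaller ratio than that of B2_Mm1a or B2_Mm1t.

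The same split was present in the number of fragments. B2_Mm1a copies together held 4391 FPM (fragments per 1e6 fragments of the blastomere) at the 4-cell median, with a range from 1169 to 13318, and 1273 at the 8-cell median, with a range from 821 to 5492. B2_Mm1t had medians of 2707 and 879 FPM, and B2_Mm2 of 3234 and 2137. B3 stood at 2734 and 3325 FPM, and B3A at 964 and 1343. The spread between blastomeres of a stage was wide for the B2 subfamilies: S10 had the lowest and S24 the highest B2_Mm1a level of the 4-cell stage. B3 ran from 2348 to 3670 FPM at the 4-cell stage, a narrower range than that of any B2 subfamily there. The 8-cell range was 2023 to 4732 FPM for B3 and 1548 to 3418 FPM for B2_Mm2. These levels were set across 2 tables that were normalized separately by the same method.

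The subfamilies also differed in how large a part of their genomic copies was ever seen. Copies are numbered along each chromosome, and the highest number listed on each chromosome gives a lower bound of the number annotated. By this measure 73.2% of the 18293 numbered B2_Mm1a copies were listed at the 4-cell stage and 61.8% at the 8-cell stage. For B2_Mm1t the shares were 52.9% and 40.3% of 23158, and for B2_Mm2 22.2% and 17.3% of 88787. Of 145978 numbered B3 copies only 6.56% and 9.12% were listed, and of 91249 numbered B3A copies 4.92% and 7.1%. A single blastomere contained up to 37.2% of the numbered B2_Mm1a copies at the 4-cell stage and at most 1.07% of the B3 copies. Among the B1 subfamilies the highest listed share at the 4-cell stage was 24.7%, for B1_Mm, and both B4 subfamilies lay at 3.49% and 3.58%. The authors counted uniquely aligned reads, and near-identical copies can lose reads under such a rule; how much this changed the shares was not tested.

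Copies were shared between blastomeres to a different degree. At the 4-cell stage 13.8% of the listed B2_Mm1a copies were seen in exactly 1 blastomere, compared with 26.4% of B2_Mm1t, 50% of B2_Mm2, 67.9% of B3 and 69.6% of B3A. At the 8-cell stage the shares were 24.9%, 37.1%, 59.6%, 66.3% and 67.3% in the same order. Over all B2 and B3 copies 24570 of 59399, or 41.4% (95% Clopper-Pearson interval 41% to 41.8%), were seen in 1 blastomere at the 4-cell stage. At the 8-cell stage these were 28616 of 55782, or 51.3% (50.9% to 51.7%). The intervals cover counting error only, with copies taken as independent, and not the spread between blastomeres or embryos. Without the unnamed columns the 8-cell share was 53.7%, outside its interval. No difference between the stages is read from these intervals. The B1 copies stood at 56.5% and 59.1%, and the B4 copies at 72.1% and 71.6%.

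At the other end, 295 copies were seen in all 24 4-cell blastomeres and 115 in all 26 8-cell blastomeres. When a value above 1 was needed, 143 and 68 copies were in every blastomere of the stage. The counts that follow use values above 0. B2_Mm1a supplied 176 of the 295 and 56 of the 115, and B2_Mm1t supplied 87 and 33. B2_Mm2 had 16 and 11, B3 had 8 and 9, and B3A had 8 and 6. None of the 295 was missing from the 8-cell table, where the least widespread was seen in 6 blastomeres, and none of the 115 was missing from the 4-cell table, where the least widespread was seen in 16. A total of 86 copies were seen in every blastomere of both stages, 48 of them B2_Mm1a and 26 B2_Mm1t. Copies seen in at least 12 of 24 blastomeres numbered 3208 for B2_Mm1a and 239 for B3 at the 4-cell stage. Copies seen in at least 13 of 26 numbered 1100 and 214 at the 8-cell stage.

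**Figure D2:**
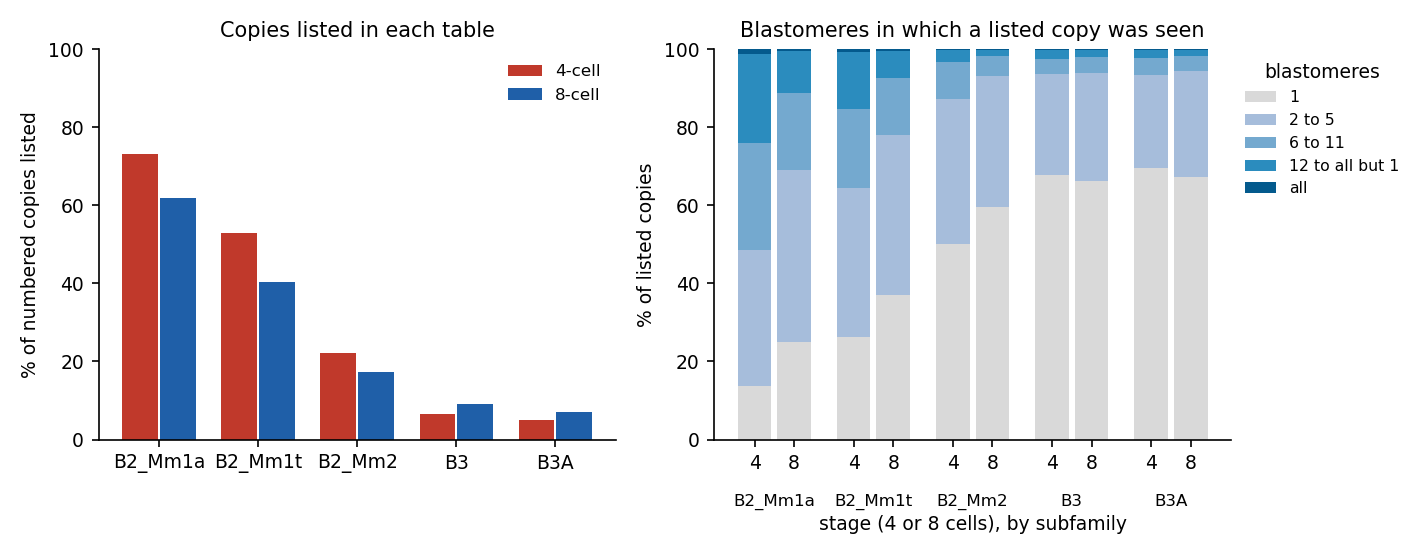
Left, the percent of the numbered copies of each subfamily that the 4-cell table (red) and the 8-cell table (blue) listed, from 73.2% for B2_Mm1a to 4.92% for B3A at the 4-cell stage. Right, the listed copies of each subfamily by the number of blastomeres in which they were seen, as a percent: the pale bottom segment, copies seen in 1 blastomere, grows from 13.8% in B2_Mm1a to 69.6% in B3A at the 4-cell stage.

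A pair of blastomeres shared many B2_Mm1a copies and few B3 copies. Of the B2_Mm1a copies seen in a 4-cell blastomere a median of 52% were also seen in another, over 552 ordered pairs that ranged from 23.6% to 79.6%. The median was 45.9% for B2_Mm1t, 25.2% for B2_Mm2, 23.8% for B3 and 23.4% for B3A. At the 8-cell stage, over 650 ordered pairs, it was 36.9%, 32.2%, 18.3%, 21.1% and 20.2% in the same order. These shares depend on the number of copies seen in the other blastomere.

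The fragments behind a seen copy ran the other way. A seen B2_Mm1a copy rested on a median of 3 fragments at the 4-cell stage and 2 at the 8-cell stage, whereas a seen B3 copy rested on 12 and 16 and a seen B3A copy on 11 and 15. Of the copies seen in 1 4-cell blastomere, 66.5% of the B2_Mm1a copies and 28.3% of the B3 copies had 1 fragment. At least 10 fragments were behind 10% of these B2_Mm1a copies and 39.2% of these B3 copies. One such B3 copy had 439 fragments in its only blastomere. B2_Mm1a and B2_Mm1t were thus seen as many copies with few fragments each, and B3 and B3A as few copies with more fragments each. The 10 copies with the most fragments held 4.85% of all B2_Mm1a fragments and 31% of all B3 fragments at the 4-cell stage. PCR copies of a molecule were not removed by molecular identifiers, so that fragments are not independent molecules.

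The B2 copies clustered near a common length. The length of a copy is fixed by the step of its FPKM values, and was taken for copies seen in at least 5 blastomeres of both stages together; it may be off by 1 base, depending on how the ends were counted. The median length was 189 bases for 9245 B2_Mm1a copies, 188 for 6403 B2_Mm1t copies and 184 for 5123 B2_Mm2 copies. It was 182 bases for 2077 B3 copies and 165 for 923 B3A copies. The most frequent length of B2_Mm1a and of B2_Mm1t was 191 bases. Copies of 180 bases or longer made up 83.4% of B2_Mm1a and 31.1% of B3A. Sequences and start positions of the copies were not used here, and neither was the position inside or outside genes.

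The listed share varied between chromosomes. For B2_Mm1a at the 4-cell stage, with Y left out, it was between 66.7% on chromosome 12 and 77.4% on chromosome 19, and X stood at 67.8%. On Y 11 of 41 numbered B2_Mm1a copies were listed, or 26.8%. For B3A at the 4-cell stage it was between 3.91% on chromosome 14 and 6.8% on chromosome 11 among the autosomes. With Y left out, the B3 share was lowest on X at both stages, 2.81% and 5.19%, against medians over chromosomes of 6.6% and 9.04%, and highest on chromosome 11, 8.82% and 11.7%. The next lowest chromosome for B3, chromosome 13, was at 5.56% and 8.28%. With Y left out, B1 copies were lowest on X as well, at 9.22% and 10%. The Y chromosome was lower still, at 0.326% and 0.587% for B3 and 0.512% and 0.633% for B1, where embryos of both sexes may be present and the sex of a blastomere is not known.

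Among the blastomeres of a stage, the numbers of B2_Mm1a and B2_Mm1t copies showed little relation to those of B3, and the number of B2_Mm2 copies varied with B3. The numbers of seen B2_Mm1a and B2_Mm1t copies ran together across the 24 4-cell blastomeres (Pearson's r = 0.987, Spearman's rho = 0.979) and across the 26 8-cell blastomeres (r = 0.987, rho = 0.965). B3 and B3A ran together as closely (r = 0.993 and 0.995). B2_Mm1a and B3 did not, with r = 0.08 and rho = 0.09 at the 4-cell stage and r = -0.02 and rho = -0.01 at the 8-cell stage. Without the 2 blastomeres farthest from the median of B2_Mm1a, this r was 0.05 and 0.38. For B2_Mm1t and B3 r was 0.10 at each stage. For B2_Mm2 and B3 it was 0.51 at the 4-cell stage (rho = 0.35) and 0.81 at the 8-cell stage (rho = 0.74), and 0.34 and 0.68 without the 2 blastomeres farthest from the median of B2_Mm2. B3 copies varied with the B1 copies (r = 0.80 and 0.86), and B2_Mm1a copies did so less closely (r = 0.518 and 0.474, and 0.422 and 0.687 without the 2 farthest blastomeres). B3 copies, B3A included, also varied with the number of genes above FPKM 1 (r = 0.76 and 0.71; rho = 0.86 and 0.52). For the B2 copies and the number of genes r was 0.26 and 0.24 (rho = 0.03 and 0.26). Without the 2 farthest blastomeres this r was 0.05 and 0.36. All of these numbers come from the same libraries and share their depth, and embryos were not separated, so that these values describe the blastomeres and were not tested.

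Single blastomeres show the range of combinations. S24 at the 4-cell stage had 12663 seen B2 copies and 564 B3 and B3A copies, with 4939 genes above FPKM 1. S5 had 6885 and 2288, with 7875 genes. At the 8-cell stage S55 had 9061 B2 copies, 638 B3 and B3A copies and 4963 genes, and S68 had 4782, 2321 and 6854. Other blastomeres were high in both: S13 at the 4-cell stage had 13972 B2 copies and 2253 B3 and B3A copies, and unnamed_5 at the 8-cell stage had 8668 and 3207. Over all blastomeres of a stage, B2 copies against B3 and B3A copies gave r = 0.206 and 0.221. Low gene numbers did not always accompany high B2 numbers: S18, with the fewest genes of the 4-cell stage, 3009, had the fewest B2 copies, 4199.

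**Figure D3:**
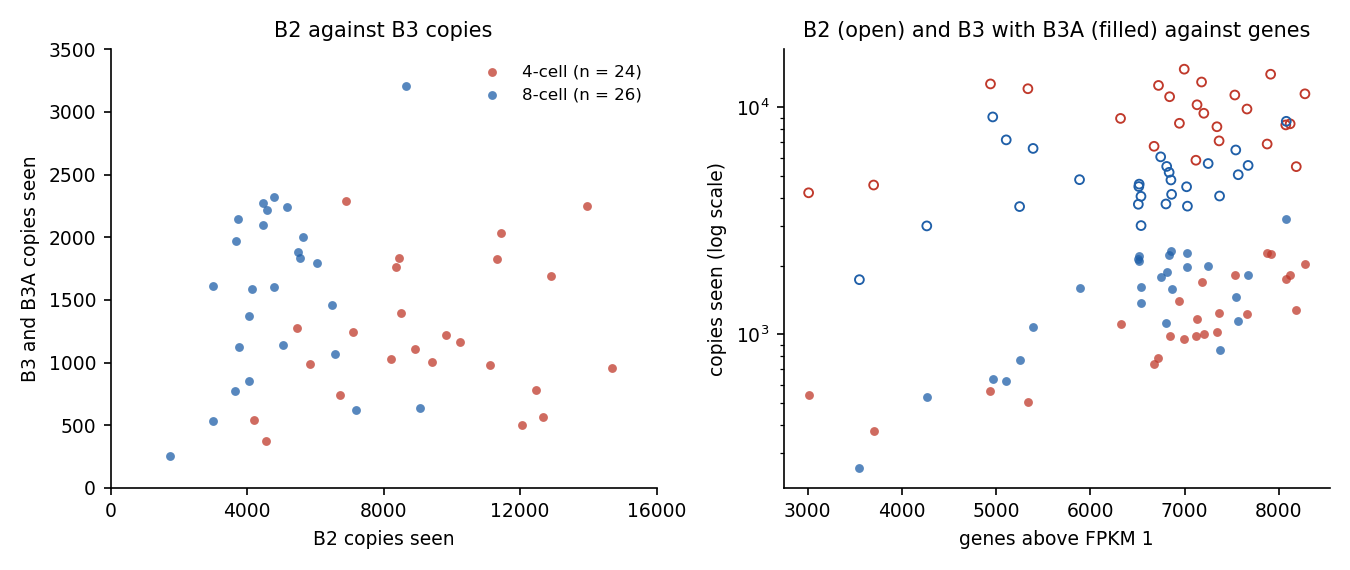
Left, seen B2 copies (x axis) against seen B3 and B3A copies (y axis), 1 point per blastomere, 4-cell in red and 8-cell in blue. Right, the number of genes above FPKM 1 (x axis) against seen B2 copies (open) and B3 with B3A copies (filled) on a log scale: the filled points rise with the gene number (r = 0.76 and 0.71) and the open points show little relation (r = 0.26 and 0.24).

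The copies with the highest levels were chosen as the 3 of each subfamily with the highest median FPKM at each stage. B3_dup6211_chr11, the copy number 6211 of B3 on chromosome 11, was the highest of all at the 4-cell stage, at FPKM 617 to 3841 with a median of 2421 at the 4-cell stage. At the 8-cell stage it was at 882 to 2180 with a median of 1421, and the 2 ranges overlapped. Its median of 5834 fragments at the 4-cell stage is the deepest of the copies named here. B2_Mm2_dup2154_chr11 came next at the 4-cell stage, at 345 to 2787 with a median of 1718. It was the highest of all at the 8-cell stage, at 986 to 2610 with a median of 1722, so that its medians hardly differed. B2_Mm2_dup3085_chr7, a short copy of 94 bases, had medians of 758 and 564. B3_dup9781_chr11 had medians of 543 and 356.

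B3A was led at the 4-cell stage by B3A_dup2069_chr5, at 125 to 501 with a median of 337 at the 4-cell stage and 243 to 530 with a median of 371 at the 8-cell stage. B3A_dup2734_chr4 was not seen in 2 of the 4-cell blastomeres and reached 1029 in another, with a median of 326. At the 8-cell stage it was seen in all 26 blastomeres and led B3A with a median of 489, and B3A_dup4312_chr11 had medians of 281 and 364. The highest copies of B2_Mm1t and B2_Mm1a were lower. B2_Mm1t_dup1270_chr11, which led its subfamily at both stages, had medians of 118 and 120, with ranges of 4.48 to 311 and 18.3 to 267. B2_Mm1a_dup1075_chr7 led B2_Mm1a at the 4-cell stage, at a median of 145 and a range from 0 to 409, but had a median of 46.9 and a range from 0 to 396 at the 8-cell stage. B2_Mm1a_dup1185_chr4 and B2_Mm1a_dup1188_chr4 led it at the 8-cell stage, at medians of 216 and 196, after 91.8 and 77.9 at the 4-cell stage.

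Copies seen in every blastomere allow the stages to be set side by side without unseen values. Of the 86 such copies, 77 had the higher median at the 4-cell stage, against 55.4% of all 650 repeat copies seen in every blastomere of both stages. At least 2-fold higher at the 4-cell stage were 64 of the 86, where the share over the 650 was 17.4%. The 650 include the 86, and these 64 are among the 113 copies behind that share. At least 2-fold higher at the 8-cell stage was 1, where the share was 5.85%. B2_Mm1a accounted for 42 of the 64 and B2_Mm1t for 21. The remaining copy was a B2_Mm2. The median ratio of the 8-cell to the 4-cell median FPKM was 0.316 for the 48 B2_Mm1a copies and 0.312 for the 26 B2_Mm1t copies. For the 5 B2_Mm2 copies it was 1.0, for the 4 B3 copies 0.752 and for the 3 B3A copies 1.1.

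Among these, B2_Mm1a_dup236_chr14 had the largest ratio, at FPKM 2.94 to 67.4 with a median of 21.4 at the 4-cell stage and 0.313 to 8.29 with a median of 2.25 at the 8-cell stage. Its 8-cell values rested on only 1 to 24 fragments, with a median of 7.5, against a 4-cell median of 52. B2_Mm1a_dup238_chr14, which follows it closely in number on the same chromosome, was at a median of 39.8 and then 5.98. B2_Mm1a_dup552_chr14 was at 98.4 and 12.3, and B2_Mm1a_dup96_chr4 at 86.7 and 10.9. The largest ratio in the B2_Mm1t subfamily was that of B2_Mm1t_dup37_chr15, at 39.2 and 6.22. In each of these 5 the ranges of the stages overlapped. In the other direction B2_Mm1a_dup1188_chr4 had the largest ratio, 2.51, with 4.36 to 202 at the 4-cell stage and 96.2 to 315 at the 8-cell stage. B3_dup4393_chr12 was next, at medians of 181 and 297.

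**Figure D4:**
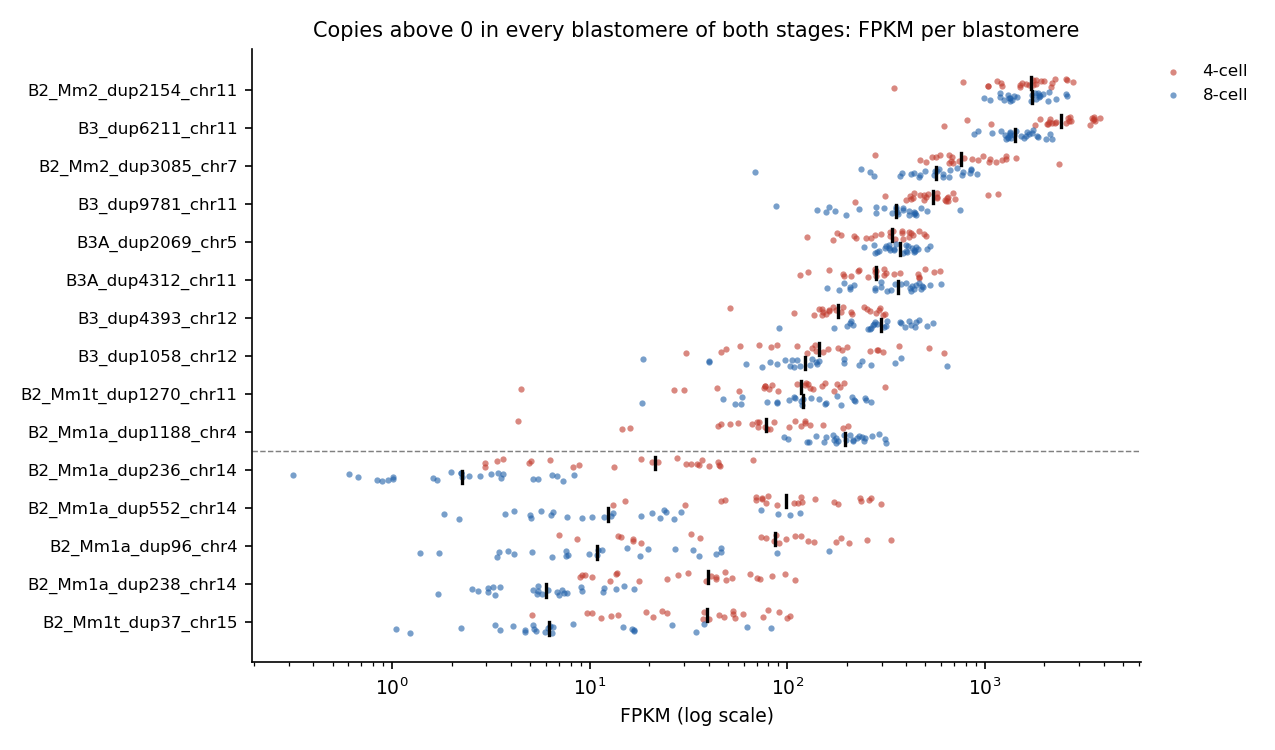
FPKM on a log scale of named copies that were above 0 in every blastomere, 1 point per blastomere, 4-cell in red and 8-cell in blue, with the medians as black bars. Above the dashed line are the 10 with the highest lower median of the 2 stages, with B3_dup6211_chr11 at 2421 and 1421; below it are the 5 with the largest ratio in favour of the 4-cell stage, where the ranges still overlap.

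No single copy separated the stages. Of 34229 B2 and B3 copies listed in both tables, 0 had a lowest 4-cell value above the highest 8-cell value and 0 the reverse, and over all 145104 repeat copies listed in both tables the share was 0.0% in either direction. A wider set was formed from the copies seen in at least 12 of 24 and 13 of 26 blastomeres with both medians above 0. Of 2028 such B2 and B3 copies 1471, or 72.5%, had a median FPKM at least 2-fold higher at the 4-cell stage, where the share over all 11718 such repeat copies was 36.8%. At least 2-fold higher at the 8-cell stage were 84, or 4.14%, where the share over all repeat copies was 18.8%. The shares over all repeat copies include the B2 and B3 copies. These were 1471 of the 4314 copies higher at the 4-cell stage and 84 of the 2198 higher at the 8-cell stage. The median ratio of the 8-cell to the 4-cell median was 0.301 for the B2 and B3 copies and 0.757 for all repeat copies. By subfamily, the share at least 2-fold higher at the 4-cell stage was 81.7% of 1073 B2_Mm1a copies, 83.5% of 550 B2_Mm1t copies and 46.5% of 185 B2_Mm2 copies. It was 24% of 154 B3 copies and 18.2% of 66 B3A copies, below the share over all repeat copies. At least 2-fold higher at the 8-cell stage were 18.8% of these B3 copies and 15.2% of these B3A copies, against 18.8% over all repeat copies.

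As a share of the listed copies, the stages had more of B2_Mm1a in common than of the other subfamilies. Of the B2_Mm1a copies listed at the 4-cell stage 79.1% were listed at the 8-cell stage, and 93.7% in the reverse direction. The shares were 65.3% and 85.6% for B2_Mm1t, 45.9% and 58.8% for B2_Mm2, 47.5% and 34.2% for B3 and 45.9% and 31.9% for B3A. Over all B2 and B3 copies 34229 were listed at both stages, which is 57.6% of the 4-cell and 61.4% of the 8-cell list. For the B1 copies these shares were 52.8% and 49.6%. Over all repeat copies, 145104 were in both lists, which held 278683 (4-cell) and 327627 (8-cell) copies. Such shares rise with the part of a subfamily that is listed. The 8-cell list held 61.8% of all numbered B2_Mm1a copies, against 79.1% of those in the 4-cell list. For B3 it held 9.12% and 47.5%, a wider gap. The order of the subfamilies therefore follows in part from their listed shares, and overlap beyond these was not tested.

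Some copies followed 1 gene across the blastomeres. For each of 2313 B2 and B3 copies seen in at least 12 blastomeres of each stage, the gene with the highest Pearson's r of log2(FPKM + 1) was found among 7295 genes, separately over the 24 4-cell and the 26 8-cell blastomeres. The same gene came first at both stages for 81 copies, which followed 77 genes, and for all 81 copies that gene lay on the chromosome of the copy, whereas 5.62% of the genes compared lay on a copy's own chromosome. Where along the chromosome the copy number and the gene start fell was alike as well: both expressed as a fraction of the chromosome, they had a median difference of 0.0473 (r = 0.97, n = 81). This comparison was chosen after the data had been seen, the genes were picked for their likeness, and the values are a description. A fragment that lies in a repeat copy inside an exon counts in both tables, and copies and genes share their libraries.

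B3A, B3 and B2_Mm2 held most of these copies. They were 23.9% of 71 B3A copies, 18% of 161 B3 copies and 10.1% of 208 B2_Mm2 copies, but 0.986% of 1217 B2_Mm1a copies and 0.305% of 656 B2_Mm1t copies. They were 28.4% of the 190 copies with a median of at least 30 fragments at both stages, and 0.421% of the 1899 copies with a median under 10 at either stage. At 30 fragments or more, 9 of 44 B2_Mm1a copies and 22 of 59 B3 copies were among them.

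Named pairs show how close the values were. B2_Mm1a_dup670_chr6 followed Nanog, which encodes a transcription factor of pluripotent cells, with r = 0.99 at both stages. The copy was at 0 to 203 with a median of 45.7 at the 4-cell stage and at 0 to 149 with a median of 24.7 at the 8-cell stage. Nanog was at medians of 21.2 and 7.93, and at the 8-cell stage the same 3 blastomeres had neither. B2_Mm1a_dup498_chr12 followed Churc1, a zinc finger gene, at r = 0.997 and 0.99, with medians of 141 and 150 for the copy and 93.2 and 95.5 for the gene. B2_Mm1t_dup236_chr2 followed Wdr34, a dynein intermediate chain gene, at r = 0.98 and 0.99. B2_Mm2_dup345_chr11 followed Snhg15, a small nucleolar RNA host gene, at r = 0.99 and 0.97.

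B2_Mm2_dup4497_chr11 followed Mrpl27, of the large subunit of the mitochondrial ribosome, at r = 0.99 at both stages, with medians of 161 and 232 for the copy and 88.4 and 121 for the gene. B3_dup9781_chr11 followed Mrps7, of its small subunit, at r = 0.97 and 0.99, with medians of 543 and 356 for the copy and 193 and 128 for the gene. B2_Mm1a_dup334_chr3 followed Mrpl9, also of the large subunit, at r = 0.96 and 0.93. B3_dup4903_chr14 followed Commd6 at r = 0.99 at both stages, and the 2 4-cell blastomeres without the copy were those without the gene.

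B3A_dup4510_chr6, of 79 bases, followed Dppa3, the maternal factor that protects methylation in the zygote, at r = 0.89 and 0.91. It was at a median of 55.4 at the 4-cell stage and 56.7 at the 8-cell stage, where Dppa3 was at 3658 and 3260. B3_dup4280_chr11 and B3_dup4281_chr11, 2 neighbours by number, both followed Aurkb, a mitotic kinase, with r between 0.978 and 0.997. B2_Mm2_dup3085_chr7 followed Prc1, a cytokinesis gene, at r = 0.94 and 0.82. B2_Mm1a_dup1188_chr4 followed Gm13102, at r = 0.98 and 0.96, which belongs to a multigene family where reads may be split between near-identical genes, so that this pair is uncertain.

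**Figure D5:**
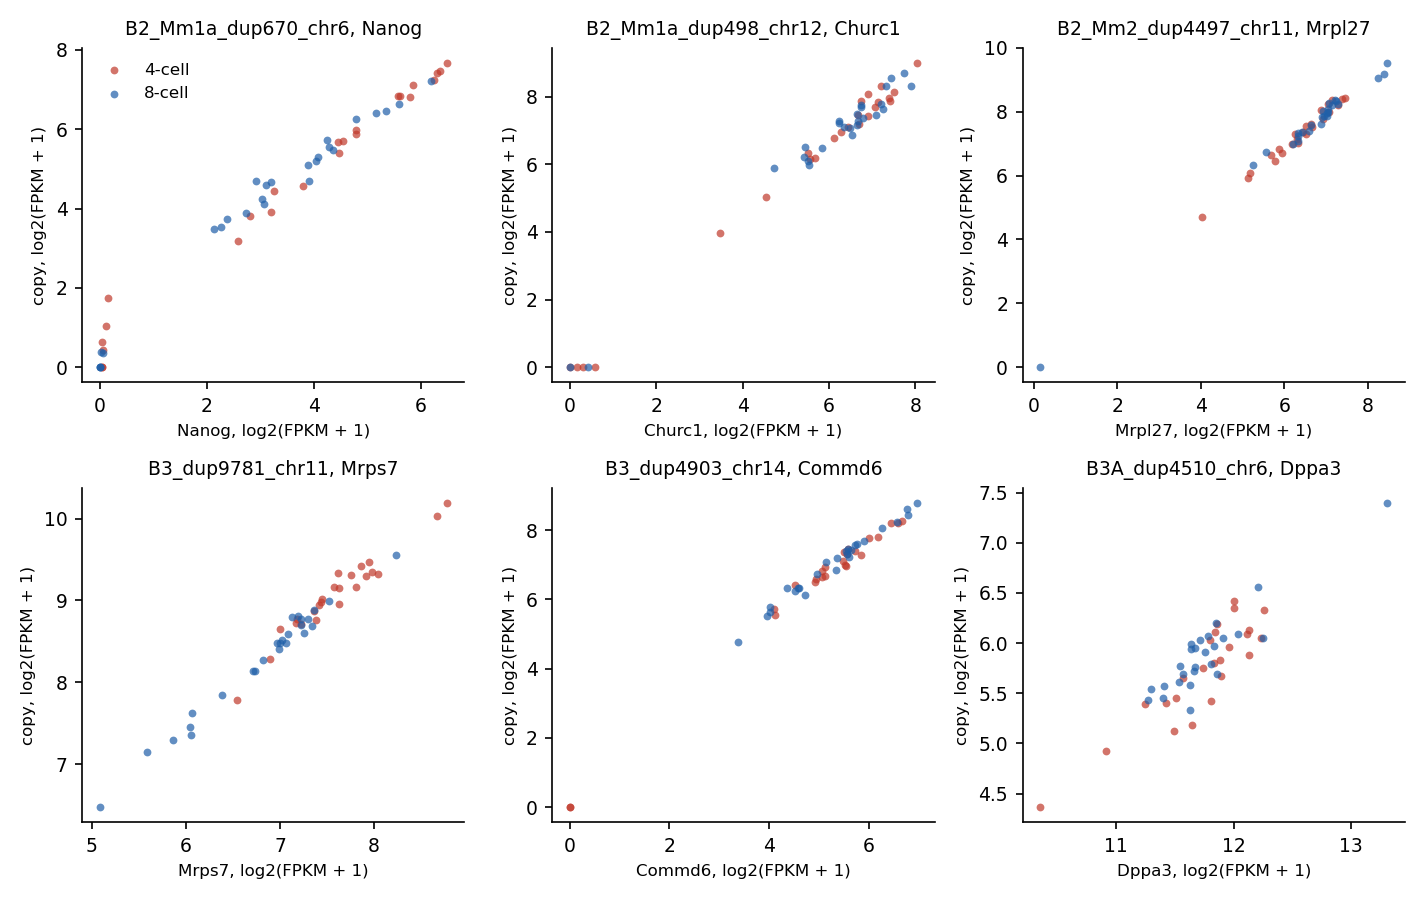
Each panel sets a copy (y axis) against the gene most like it (x axis), both as log2(FPKM + 1), 1 point per blastomere, 4-cell in red and 8-cell in blue. The points of the 6 pairs, chosen for their likeness, lie along a line, from r = 0.99 for Nanog to r = 0.89 and 0.91 for Dppa3.

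The copies with the largest ratios in favour of the 4-cell stage had no such gene. The most alike genes of B2_Mm1a_dup236_chr14, B2_Mm1a_dup238_chr14, B2_Mm1a_dup552_chr14, B2_Mm1a_dup96_chr4 and B2_Mm1t_dup37_chr15 lay on other chromosomes at both stages, with r of 0.66 to 0.87, and differed between the stages. Their 8-cell medians were 7.5, 19, 39.5, 36 and 18.5 fragments in that order. The same gene came first for 0.421% of copies under 10 fragments, 8.48% at 10 to 30 and 28.4% at 30 or more. The lack of such a gene is therefore not particular to these copies. The highest copy of the 4-cell stage, B3_dup6211_chr11, was most like Dcaf13 of chromosome 15 at the 4-cell stage and Znhit3 of chromosome 11 at the 8-cell stage. B2_Mm2_dup2154_chr11, the highest of the 8-cell stage, was most like the ribosomal protein genes Rpl7 and Rpl13, on chromosomes 1 and 8.

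Messenger RNA of most listed genes of the RNA polymerase III machinery was present at both stages, while that of Brf1 had a median near 0. Of 25 genes of RNA polymerase III, its initiation factors and their regulators, 23 had a median above FPKM 1 at each stage, and 4 of the 23 were at least 2-fold higher at the 4-cell stage and 1 at the 8-cell stage. Over all 7131 genes with a median above FPKM 1 at a stage, these shares were 21.1% and 12.2%, and the 23 genes exceeded neither share. The median ratio of the 8-cell to the 4-cell median was 0.691 for these 23 genes and 0.909 for all genes. Polr3g, the subunit that early embryos and stem cells use, was at 43.6 to 140 with a median of 92.5 at the 4-cell stage and 0.14 to 128 with a median of 61.5 at the 8-cell stage. Its paralogue Polr3gl was at a median of 0 at both stages and above FPKM 1 in 1 blastomere of each.

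The 4 genes that were 2-fold higher at the 4-cell stage were Polr3f, Brf2, Tbp and Gtf3c3. Tbp, the TATA-binding protein, had a median of 113 against 43.3, and Gtf3c3, of the complex TFIIIC that binds the internal promoter of B2, had 21.7 against 3.73. Polr3f had 4.05 against 1.59 and Brf2 28.7 against 10.9. Gtf3c2, also of TFIIIC, had 15 against 37 and was the 1 higher at the 8-cell stage. Brf1, the initiation factor at tRNA-like promoters, had a median close to 0 at both stages and was above FPKM 1 in 9 of 24 and 12 of 26 blastomeres. Maf1, a repressor of RNA polymerase III, had medians of 14.4 and 19.1.

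Factors that bind or silence B2 copies were expressed as well. Of 18 genes, 17 had a median above FPKM 1 at each stage, and their median ratio of the 8-cell to the 4-cell median was 1.01. Dnmt1, the maintenance DNA methyltransferase, was the 1 gene of the 17 at least 2-fold higher at the 4-cell stage, at 7.72 against 2.26, where the share over all genes was 21.1%. Adnp and Trim28 were the 2 of the 17 at least 2-fold higher at the 8-cell stage, close to the share over all genes of 12.2%. Adnp, part of the ChAHP complex that competes with CTCF at B2 copies, had a median of 8.15 against 18.2, and Trim28, a corepressor of repeats, 59.8 against 121. Chd4, also of ChAHP, was at 10.6 and 10.9, and Ctcf at 21.6 and 16.2. In all of these genes the ranges of the stages overlapped.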

How the data were processed

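Smart-seq2 libraries of single blastomeres were sequenced as 100-nt paired ends. The authors aligned them with STAR 2.5.1b to mm10, kept uniquely aligned reads and counted them with HTSeq over RefSeq genes and RepeatMasker copies. The deposited values are FPKM by the authors, 1 gene and 1 repeat table per stage, each stage normalized separately. Columns were placed in a stage, and were not placed in embryos, which their names do not give; the 5 unnamed 8-cell columns of the 2 tables were paired by order, and the pairing was checked through the fragment totals, with which all 48 column ratios of each kind of table agreed within 0.001.

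From the values the fragment total of each blastomere, the length of each copy and whole fragment numbers were recovered. The largest distance of a recovered fragment number from a whole number was 0.00529. Work was done in Python 3.11.15 with pandas 2.3.3 and scipy 1.17.1. A copy above 0 was seen. The likeness of copies to genes used log2(FPKM + 1), and the other correlations used numbers of seen copies and of genes. Gene IDs were named through RefSeq (GRCm38.p6), with 99.9% matched at each stage.

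The members and the gene lists were chosen with earlier results of these data known. Copies were named as the 3 highest medians of each subfamily at each stage, the 10 highest of those above 0 in every blastomere of both stages, and the 5 largest ratios each way among the latter, a set chosen after no copy was found with ranges that did not overlap. The planned comparison with gene positions was not run, since copies carry no coordinates here.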

Additional observations from a re-analysis of the deposited data

How the results depend on the processing

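In each subfamily the stage with the higher median number of seen copies was the same under 6 alternatives: a value above 1, 2 fragments, without the unnamed columns, without the blastomere with the fewest copies (S20 and S57), copies over the fragment total, and equal depth. Restricting to assembled chromosomes changed no value, since 0 copies lay elsewhere, and bears on nothing. Equal depth was added after seeing the data, as were the alternatives to the 2-fold counts and to the likeness to genes. The ratio of the 4-cell to the 8-cell median was 1.54 to 2.1 for B2 and B3 together, 1.96 to 2.49 for B2 and 0.703 to 0.886 for B3 with B3A. With a value above 1, the median number of seen copies was 6392.5 and 3783.5 at the 4-cell and 8-cell stages, the share in exactly 1 blastomere was 47.3% and 58.1%, and the share in every 4-cell blastomere was 0.325%. With at least 2 fragments, the 8-cell median was 4400.5 and the shares in 1 blastomere were 43.1% and 53.3%. Without the unnamed columns, 53.7% of the 8-cell copies were in 1 blastomere and 0.254% in every blastomere; without S57 the latter was 0.253%, against 0.206% with all columns. Copies seen in at least 2 blastomeres of each stage numbered 19572 in both tables, since fewer copies qualify. Members at least 2-fold higher at the 4-cell stage numbered 1306 to 1488, and those at the 8-cell stage 71 to 84, with FPKM over the summed B1 FPKM included. Copies with the same most alike gene numbered 74 to 91, and with Spearman's rho 75 of the 81 pairs were shared and 90 of 91 genes lay on the copy's chromosome. About 31% of seen copies rested on 1 fragment at each stage, which limits the count of copies seen in 1 blastomere. No paired analysis was possible because no column name gives an embryo or a replicate, and order or values were not used to assign one; for the same reason the comparison over embryos and its leave-out were not run, nor were the alternatives for copies inside genes.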
